A study of Mus musculus with 60 samples.

Results

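The proteasome genes examined here were all genes of the deposited EU-seq count table whose symbol begins with Psm, continues with a letter from a to g and ends in a number. These were 48 of the 27665 transcripts in the table, with 1 representative transcript for each gene. Of the 48, 8 encode alpha subunits and 7 constitutive beta subunits of the core particle, and 4 encode the inducible or tissue-specific beta subunits Psmb8, Psmb9, Psmb10 and Psmb11. A further 9 encode subunits of the base and 8 of the lid of the regulatory particle, 7 encode assembly chaperones, and 5 encode activators and an inhibitor. Subunits and assembly factors whose symbols have another form were not members, such as the subunits Adrm1 and Sem1 and the assembly factor Pomp. They were counted in a separate list of 27 proteasome partner genes.

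The proteasome is the protease of the nucleus and cytosol that degrades proteins marked with ubiquitin chains. Alpha rings gate the barrel-shaped core, the beta rings inside carry the catalytic sites, the base unfolds substrates with a ring of ATPases and the lid removes ubiquitin. The subunits are made in matched amounts, and when proteasome activity is low the factor Nfe2l1 raises their transcription together. Degrader drugs and auxin degrons use the same proteasome to remove their targets, so these genes belong to the machinery on which the depletion experiments rely.

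Nascent transcription was measured by EU-seq, in which a short pulse of ethynyl uridine marks newly made RNA for capture and sequencing. The purpose was to separate the roles of CTCF and cohesin in gene regulation. All cells were mouse embryonic stem cells (mESCs) or neural progenitor cells (NPCs) made from them, and every group, controls included, carried a degron allele. The libraries numbered 60. RAD21-AID mESCs, in which the cohesin subunit RAD21 is degraded by the auxin IAA, gave an initial set of 2 control and 2 treated libraries and an additional set of 12 and 12, each at 4 h of 500 µM IAA. NPCs made from the RAD21-AID line had 2 control libraries and 2 for each of 1 h, 2 h and 4 h of IAA and of 1 h of 10 µM A-485, which blocks the catalytic site of the histone acetyltransferases CBP and p300. CTCF-AID mESCs had 4 control libraries and 4 at 6 h of IAA, of which 2 and 2 were unstranded and 2 and 2 stranded. The YF-AA line carries a degradable CTCF in which a tyrosine and a phenylalanine that contact cohesin are replaced by alanine, and it had 2 control libraries and 2 each at 2 h and 4 h of 200 nM dTAG-13. The last line, bTAG-ΔN-CTCF/dTAG-CTCF-ΔC, has a CTCF allele without the N-terminus that AGB1 degrades and an allele without the C-terminus that dTAG-13 degrades. It had 2 control libraries and 2 each at 2 h of 100 nM AGB1, of 100 nM dTAG-13 and of both. The sources disagree on the dTAG-13 dose of this line: the labels give 100 nM and the column names 200 nM. The edited CTCF alleles of the YF-AA and bTAG-ΔN-CTCF/dTAG-CTCF-ΔC lines were made by picking and genotyping single colonies. Per the study's methods, growth of these cells seemed slower than that of lines with a whole degradable CTCF. The RAD21-AID and CTCF-AID mESCs came from other laboratories, and whether each is 1 clone is not given in the sources used here.

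Library totals ran from 4027449 to 21898781 counts with a median of 13579700.5, and the proteasome genes took between 0.3291% and 0.4411% of them. These are the counts over whole gene bodies; in the counts over the first 90 kb, used for NPCs at 1 h, the share was 0.3906% and 0.3914% in controls, 0.4006% and 0.3928% after IAA, and 0.5454% and 0.5448% after A-485. Since counts are shares of a library, fewer cells making a transcript and less transcript per cell cannot be told apart. The labels do not say that libraries of a group came from separate cultures. The study describes them as biological replicates, and what separates them is not stated further, so p-values measure the spread between libraries. Whether stranded and unstranded CTCF-AID libraries of the same number share RNA is not given in the sources used here, and if they do, the p-values over all 8 libraries are too small. The stranded CTCF-AID libraries stood apart: their replicate pairs had chi-square values per degree of freedom of 38.18 and 31.06, against 4.977 and 7.849 for the unstranded pairs. Degradation acts on protein, so the RNA of Rad21 or Ctcf gives no check of the labels. The mESC and NPC names held against 8 marker genes of each cell type: the summed level of the mESC list, in TPM (counts scaled to gene body length and library), was 7037 to 7629 in the additional RAD21-AID mESC controls and 316.3 to 322.8 in NPC controls, and that of the NPC list was 172.9 to 205.1 and 2598 to 2830.

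Levels below are TPM over the gene body, exons and introns together, so they follow nascent transcription per kb and not the amount of mature mRNA. In mESCs proteasome genes were transcribed well above the typical gene. Over the 12 additional RAD21-AID controls the median member had 82.48 TPM, the 90.2 percentile of all counted genes, and 45 of 48 members were above 15 TPM. Levels within the complex were not alike although its subunits assemble in fixed ratios. The highest member was Psmb6, the caspase-like catalytic subunit, at 329.3 ± 14.48 TPM (SD, n = 12), followed by the core subunit Psmb4 at 254.4 ± 13.6. The next in order were the nuclear activator Psme3 at 236 ± 8.195, the base ATPase Psmc5 at 212.5 ± 10.96 and the lid subunit Psmd7 at 195.7 ± 6.512. Each step between these 5 was larger than the SD of the lower gene. The median was 112.8 TPM for alpha subunits, 85.96 for constitutive beta subunits, 106 for the base and 118.2 for the lid, against 42.52 for assembly chaperones and 42.98 for activators and the inhibitor. Core and regulatory particle genes thus lay in the same range, and the chaperones lay lower.

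**Figure D1:**
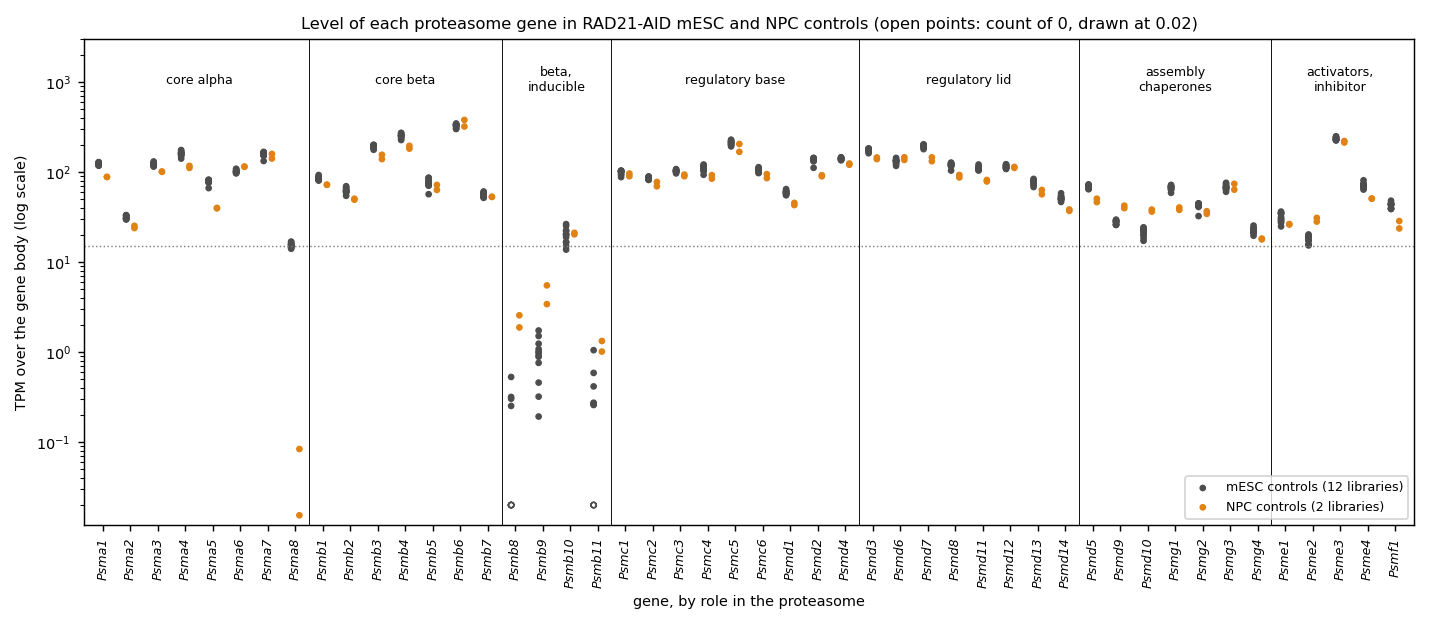
TPM over the gene body on a log axis for each proteasome gene, ordered by role, in the 12 RAD21-AID mESC control libraries and the 2 NPC control libraries; open points mark a count of 0. Most members lie between 15 and 330 TPM in both cell types, while Psmb8, Psmb9 and Psmb11 lie far lower and Psma8 is near 0 in NPCs.

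For 2 of the 3 catalytic subunits with inducible counterparts nearly all transcription was from the constitutive gene. In mESC controls Psmb5, the chymotrypsin-like subunit, had 76.56 TPM and its counterpart Psmb8 had 0.1171. Psmb6 had 329.3 and its counterpart Psmb9 had 0.9275. The trypsin-like subunit Psmb7 had 56.41 and Psmb10 had 19.94, so Psmb10 was the inducible gene with a clear level. The same order held in NPC controls, with 68.1 against 2.229, 352.8 against 4.48 and 53.39 against 20.84 TPM. Psmb9 overlaps Tap1, so its counts are uncertain. Psmb8 and the thymic subunit Psmb11 passed the count filter in no treatment comparison. Psma8, the germ cell alpha subunit, and Psmb10 passed in 8 of the 12 and Psmb9 in 5, and 43 members passed in all 12.

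No proteasome gene was called at an adjusted p under 0.05 with at least a 2-fold change in any of the 12 treatment comparisons when fitted without a replicate block. With the block Psmb9 was called in CTCF-AID cells, at 1.16. Smaller differences past the adjusted p alone are described below, with the share of all tested genes past the same threshold. Fold changes are log2 values of treated over control, from edgeR's quasi-likelihood model, with the median change of expressed genes subtracted. The p tests the difference before that subtraction. Intervals of fold changes are the change plus and minus a normal multiple of the SE. They ignore the degrees of freedom of the test and may be too narrow with few libraries.

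**Figure D2:**
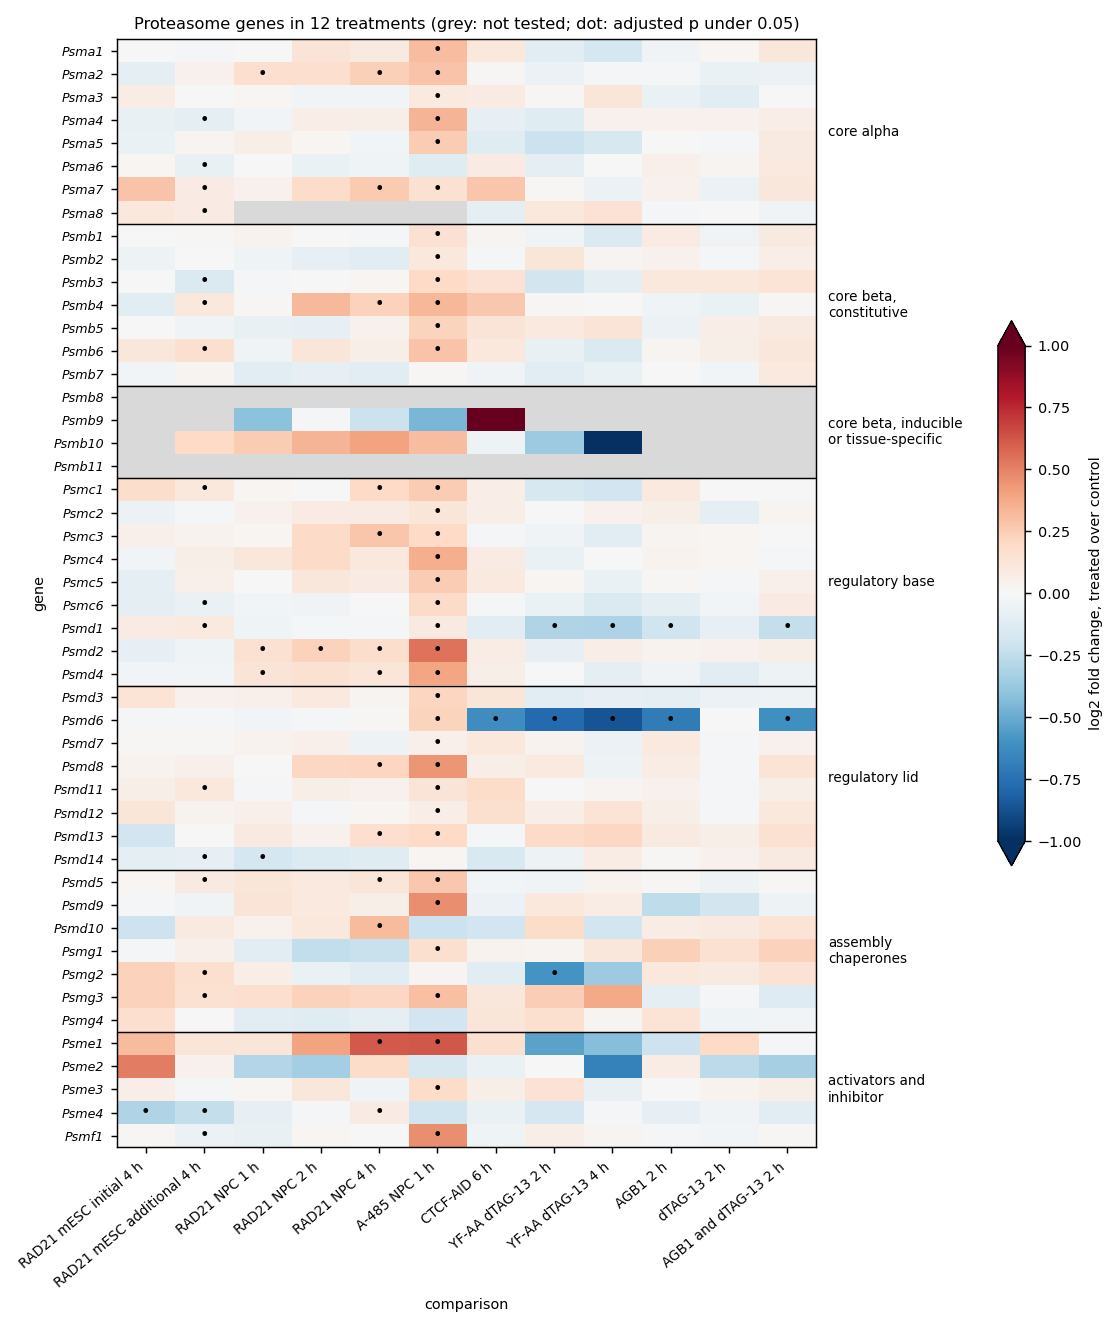
Log2 fold change of each proteasome gene (rows, by role) in each of the 12 treatment comparisons (columns), where grey means not tested and a dot an adjusted p under 0.05. Psmd6 is low in each CTCF depletion except dTAG-13 in the ΔN and ΔC line, and the A-485 column holds 35 dots, all higher.

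In the CTCF-AID line 1 proteasome gene, the lid gene Psmd6, was lower past the threshold in the main fit, which had no pair term. No other member was past it in that fit, and with the replicate pairs as a block 8 members were. Psmd6 encodes a lid subunit that helps join the lid to the base. Its gene body is at chr14:14112174-14120984 on the minus strand of mm10. In the unstranded libraries Psmd6 had 74.33 and 77.97 CPM (counts scaled to library size) in controls and 43.3 and 52.21 after 6 h of IAA. In the stranded libraries it had 65.94 and 57.75 in controls and 42.69 and 36.92 after IAA. All 4 treated libraries lay below all 4 controls.

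The fitted change of Psmd6 was -0.62 (SE 0.094, 95% interval -0.81 to -0.44, adjusted p = 0.00865), a level 1.54-fold lower. It was the lowest of the 46 members tested and stood at the 3.08 percentile of all 15611 genes. At an adjusted p under 0.05, 2.01% of genes were lower and 1.57% higher, so 1 of 46 members is close to the background share, and 1.45% of genes passed the 2-fold rule. The call is thin: it was lost without unstranded control 2, at -0.61 with an adjusted p of 0.0516, and in the stranded libraries alone, at -0.61 with an adjusted p of 1. In the unstranded libraries alone it was -0.63 (adjusted p = 0.00998). Replicate numbers paired the CTCF-AID libraries, and with the pair as a block Psmd6 was at -0.63 (SE 0.055, adjusted p = 5.84e-06). That fit called 8 members, 4 of each direction, where 13.9% of all genes were higher and 15.3% lower. The lower ones besides Psmd6 were Psmd14, the deubiquitinase of the lid, at -0.15, Psma5 at -0.12 and Psmd1 at -0.11. The higher ones were Psma7 and Psmb4, both at 0.27, Psmd12 at 0.16 and Psmb9 at 1.16, of which Psmb9 had mean counts of only 10.5 in controls and 22 after IAA.

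In the YF-AA line Psmd6 was also lower once its CTCF was degraded. Psmd6 had 61.51 and 65.87 CPM in controls, 39.37 and 35.75 at 2 h of dTAG-13, and 30.38 and 39.03 at 4 h. The treated libraries lay below both controls at each time, and the 2 times overlapped. The change was -0.78 (SE 0.118, adjusted p = 3.28e-09) at 2 h and -0.87 (SE 0.111, adjusted p = 2.26e-08) at 4 h, which is 1.72-fold and 1.82-fold lower. Tested directly, 4 h differed from 2 h by -0.09, with a 95% interval of -0.33 to 0.16 (adjusted p = 0.949). Both times were compared with the same 2 controls.

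At 2 h, 3 of 45 members were lower and none higher, where 2.70% of all genes were lower and 1.24% higher and 0.814% passed the 2-fold rule. At 4 h, 2 of 45 were lower, where 3.40% of genes were lower and 1.60% higher and 1.03% passed the 2-fold rule. At both times Psmd6 was joined by Psmd1, the largest subunit of the base, which was named here after its values were seen. Psmd1 had 259.1 and 279 CPM in controls, 218.7 and 219.3 at 2 h and 213.6 and 222.3 at 4 h, with no overlap between treated and control libraries. Its change was -0.30 (SE 0.06, adjusted p = 2.99e-05) at 2 h and -0.30 (SE 0.055, adjusted p = 3.58e-05) at 4 h. The third gene at 2 h was Psmg2, which encodes an assembly chaperone of the alpha ring. It had 31.51 and 33.28 CPM in controls, 19.1 and 22.88 at 2 h, and 25.76 and 24.79 at 4 h. The change was -0.60 (SE 0.158, adjusted p = 0.00489) at 2 h and -0.36 (adjusted p = 0.116) at 4 h. The 2 h call of Psmg2 was lost without control 2, with an adjusted p of 0.163, without treated library 1, at 0.121, and with DESeq2, at 0.177. At 4 h the lowest member by value was Psmb10, at -1.46 (adjusted p = 0.116) with mean counts of 20.5 and 9.5, ahead of Psmd6.

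**Figure D3:**
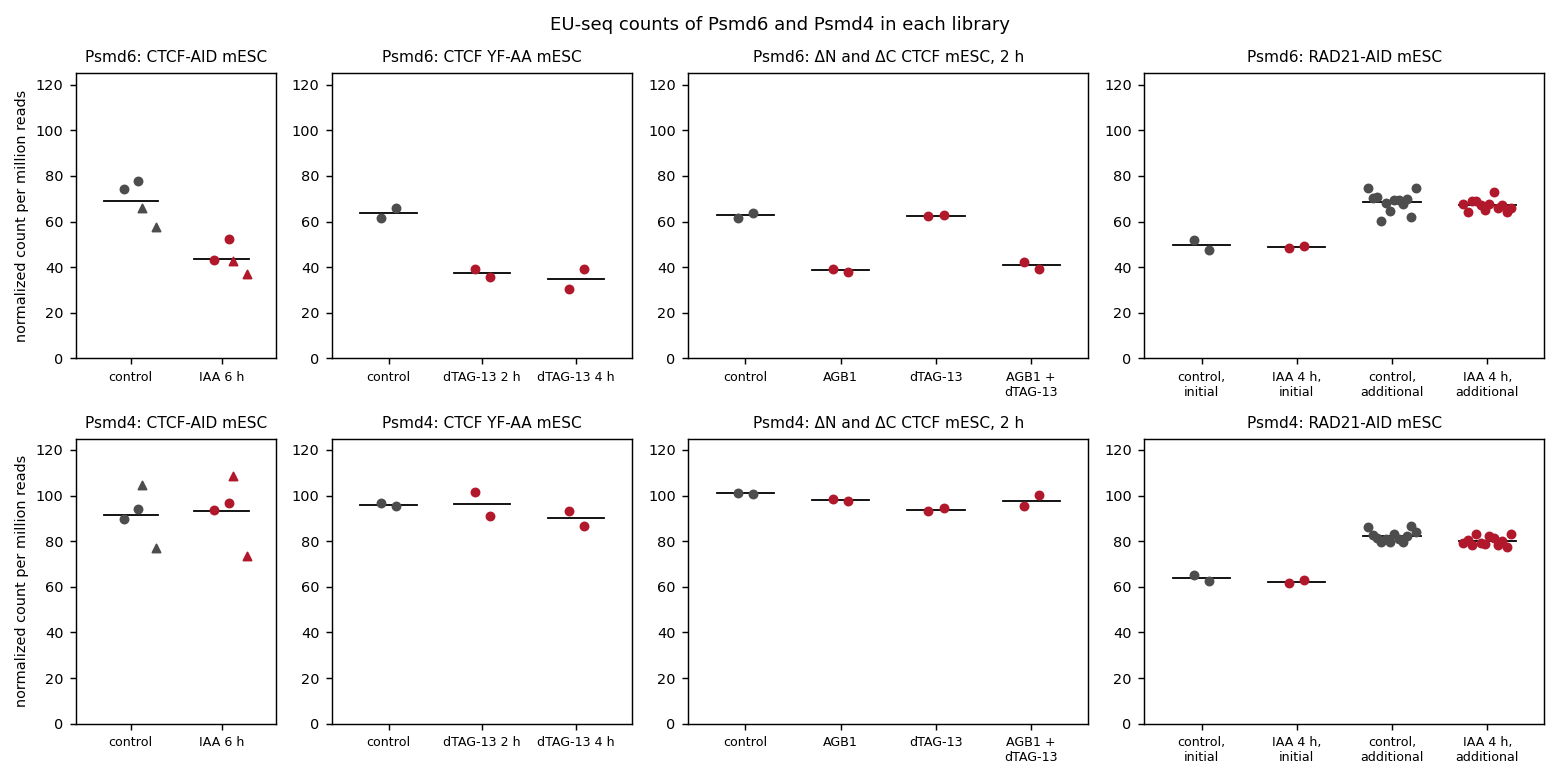
Normalized counts (CPM) of Psmd6 and of Psmd4 in each library of the CTCF and RAD21 depletion experiments, 1 point per library. Psmd6 falls in CTCF-AID, YF-AA and AGB1 libraries and stays between 60.41 and 74.67 in the additional RAD21-AID controls, with treated libraries in the same range. Psmd4 shows no such step.

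In the bTAG-ΔN-CTCF/dTAG-CTCF-ΔC line the level of Psmd6 differed with the allele that was removed. Psmd6 had 61.59 and 63.87 CPM in controls, 39.26 and 37.79 after AGB1, 62.27 and 62.8 after dTAG-13, and 42.38 and 39.21 after both. AGB1 leaves the allele without the C-terminus, and dTAG-13 leaves the allele without the N-terminus. The change was -0.70 (SE 0.08, adjusted p = 3.15e-07) after AGB1, -0.62 (SE 0.081, adjusted p = 7.32e-07) after both, and 0.00 with a 95% interval of -0.15 to 0.15 (adjusted p = 0.999) after dTAG-13. AGB1 set directly against dTAG-13 at the same time gave -0.70 (SE 0.077, 95% interval -0.85 to -0.55, adjusted p = 2.55e-05). Both drugs against AGB1 alone gave 0.09, with an interval of -0.08 to 0.25 (adjusted p = 0.714).

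After AGB1, 2 of 44 members were lower and none higher, where 1.49% of all genes were lower and 0.653% higher. After both drugs 2 of 44 were lower, where 4.55% of genes were lower and 2.04% higher. The second gene was again Psmd1. It had 298.6 and 274.1 CPM in controls, 252.9 and 244 after AGB1, 277.8 and 263 after dTAG-13, and 247.7 and 238 after both. Its change was -0.20 (SE 0.052, adjusted p = 0.0264) after AGB1, -0.24 (SE 0.056, adjusted p = 0.00538) after both and -0.08 (adjusted p = 0.999) after dTAG-13. AGB1 against dTAG-13 gave -0.12 for Psmd1 (adjusted p = 0.296), so a difference between the drugs was not shown. The AGB1 call of Psmd1 was lost without control 1 or without either AGB1 library, and the call after both drugs without control 1 or treated library 2. Psmd1 shares its transcribed region with Gm21972 on the same strand and Htr2b on the opposite one, so reads may be split among them.

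After dTAG-13 alone no proteasome gene of that line was past the threshold: all 44 tested members were within 1.2-fold and none had an unadjusted p under 0.05. By the adjusted p alone 0.0808% of all genes were called, 0 of 13618 with a 2-fold change. The 2-fold rule called 0.404% of genes after AGB1 and 0.807% after both. In the direct test of AGB1 against dTAG-13, 1 of 44 members differed, Psmd6, where 1.92% of all genes did. No member was called between both drugs and AGB1 alone, where 0.836% of genes did, or between 4 h and 2 h in the YF-AA line, where 0.127% did. The 3 treatments of the line were compared with the same 2 controls.

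**Figure D4:**
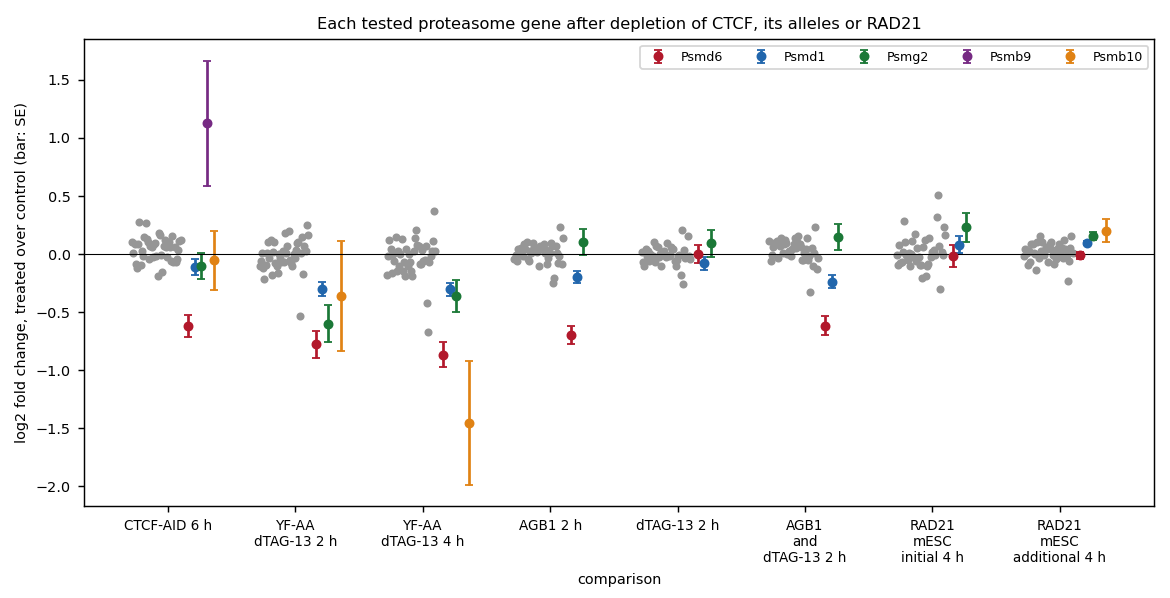
Log2 fold change of every tested proteasome gene in depletions of CTCF, of its alleles and of RAD21. Psmd6, Psmd1, Psmg2, Psmb9 and Psmb10 are in colour with SE bars where tested, and the other members are grey points. Psmd6 lies at the bottom of the CTCF-AID, YF-AA 2 h, AGB1 and combined columns and at 0 for dTAG-13 and RAD21.

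Psmd4, the ubiquitin receptor of the base, was past the threshold in none of these comparisons. In the CTCF-AID line it had 89.69, 94.19, 104.5 and 76.91 CPM in controls and 93.63, 96.75, 108.6 and 73.55 after IAA, which overlapped. The change was 0.06 (adjusted p = 0.946) there, 0.00 and -0.09 at 2 h and 4 h in the YF-AA line, and -0.04, -0.10 and -0.05 after AGB1, dTAG-13 and both.

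The promoters of Psmd6 and of 3 other members are shown because the CTCF comparisons turn on Psmd6 and because Psmd6, Psmc4 and Psme3 hold the closest matches to the CTCF consensus. RefSeq promoter windows on GRCm38.p6, from 250 bases before to 50 after each start, were matched to 40 of the 48 members. The other 8 had no window and were not searched: Psma8, Psmb1, Psmb2, Psmb7, Psmc3, Psmd3, Psmd7 and Psmg2. The sequences below are only the bases upstream of the annotated starts, 5′ to 3′ on the strand of the gene, and capitals mark a match to the CTCF consensus on either strand. Psmd6 is chr14:14120985-14121195 and Psmc4 is chr7:28050102-28050342, both on the minus strand. Psme3 is chr11:101315963-101316212 on the plus strand, and Psmd4, which has no match, is chr3:95042615-95042864 on the minus strand.
Psmd6: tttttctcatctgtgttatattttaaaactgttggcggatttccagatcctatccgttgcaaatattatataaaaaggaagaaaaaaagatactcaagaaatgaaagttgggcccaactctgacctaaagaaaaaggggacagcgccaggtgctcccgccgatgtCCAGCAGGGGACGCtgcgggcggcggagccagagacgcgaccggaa
Psmc4: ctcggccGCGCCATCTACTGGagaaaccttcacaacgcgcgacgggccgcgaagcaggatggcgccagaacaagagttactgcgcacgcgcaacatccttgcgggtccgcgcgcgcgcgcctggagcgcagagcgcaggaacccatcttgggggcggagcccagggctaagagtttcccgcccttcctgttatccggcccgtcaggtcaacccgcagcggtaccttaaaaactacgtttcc
Psme3: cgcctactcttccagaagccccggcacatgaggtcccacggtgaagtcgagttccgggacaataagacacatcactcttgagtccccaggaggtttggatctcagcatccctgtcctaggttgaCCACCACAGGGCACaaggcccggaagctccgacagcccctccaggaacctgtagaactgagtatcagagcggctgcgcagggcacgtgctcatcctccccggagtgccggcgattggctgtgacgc
Psmd4: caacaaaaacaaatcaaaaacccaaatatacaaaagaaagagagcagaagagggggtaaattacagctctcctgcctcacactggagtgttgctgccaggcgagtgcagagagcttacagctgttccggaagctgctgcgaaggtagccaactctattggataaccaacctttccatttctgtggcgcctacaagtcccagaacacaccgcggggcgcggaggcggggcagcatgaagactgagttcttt

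The match in Psmd6 lies at chr14:14121017-14121030, from 85 to 72 bases before the RefSeq start, in the orientation of the gene and with 1 mismatch. The gene start used for the counts lies upstream of the RefSeq start, by 39 bases for Psmd6 and 9 for Psmc4. The sequences printed for these genes end before that upstream start, so distances to it are shorter. With at most 2 mismatches, 10 of the 40 members (25%) had a match against 16.2% of 27025 genes: Psma6, Psmb5, Psmb9, Psmb10, Psmc4, Psmc6, Psmd2, Psmd6, Psmd14 and Psme3. With at most 1 mismatch there were 3, where 2.65% of all genes had a match. Psmc4, a base ATPase, had an exact match on the opposite strand from 243 to 230 bases before its start. Psme3 had 1 mismatch from 126 to 113 bases before. Neither was past the threshold in any CTCF depletion, while Psmc4 was among the members higher in YF-AA than in CTCF-AID controls. Psmc4 was at 0.08 (adjusted p = 0.894) in CTCF-AID cells, -0.07 and 0.00 in YF-AA cells and 0.04 after AGB1, and Psme3 at 0.06 (adjusted p = 0.872), 0.15, -0.07 and 0.00. A match is a match of letters and not evidence of binding, and Psmd1 had none in this window. The motif in Psmd6 was examined by the study itself in a luciferase assay in YF-AA cells, for which it chose promoters bound by CTCF. The study also listed Psmd6 among common essential genes lower after CTCF-AID and YF-AA depletion but not after A-485. Its depletion data are the EU-seq libraries used here, so the lower level of Psmd6 is not an independent finding. The study reported lower activity of the Psmd6 promoter after CTCF depletion and with the motif mutated. Psmd4 was its control promoter without a CTCF site and was reported as unaffected.

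Other promoter letters, searched on both strands, were the ETS motif CCGGAAGT, found in 22.5% of the 40 members and 4.31% of all genes, and the nuclear respiratory factor motif GCGCNTGCG, found in 17.5% and 7.12%. The Sp motif GGGCGG was in 57.5% and 38.2%, the antioxidant response motif TGANNNNGC in 57.5% and 45%, and CCAAT in 35% and 41.1%. The YY1 motif AAGATGGCG was in 2 members, Psmb6 and Psmc5, which is 5% against 1.64%. The shorter CTCF strings AGNNGGCNC and AGGGGGCGC, which overlap the consensus, were in 22.5% against 23.4% and in 0 of 40 against 1.43%.

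After RAD21 depletion in mESCs Psmd6 was not past the threshold. In the initial set Psmd6 had 52.06 and 47.32 CPM in controls and 48.43 and 49.36 after 4 h of IAA. In the additional set the lowest, median and highest control had 60.41, 69.41 and 74.67 CPM and the treated libraries 63.95, 67.26 and 73.04. The fitted change was -0.02 in the initial set (adjusted p = 0.937) and -0.01 in the additional set (SE 0.028, adjusted p = 0.502). The 95% interval in the additional set was -0.07 to 0.04. The CTCF-AID effect minus the additional RAD21-AID effect was -0.62 for Psmd6 (SE 0.072, adjusted p = 3.33e-08), in a joint fit without a pair term. The drug and its dose were the same, but the time was 6 h against 4 h and the lines differed. The labels give no batch for 18 of the 60 libraries. Time, line and any batch difference cannot be told apart. In that test 4 of 46 members were lower, Psmd6, Psmd1, Psmg2 and Psma5, and Psma6 was higher, where 11.7% of all genes were lower and 12.7% higher.

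The additional set, with 12 libraries a group, resolved differences of under 1.2-fold. Its labels place 2 libraries in batch CC52, number 1 of each group, and 22 in CC53. Pairs of control 1 with the other controls had chi-square values per degree of freedom of 7.048 to 13.65. Among the other controls they were 1.456 to 5.602. Of 45 members tested, 10 rose and 7 fell at an adjusted p under 0.05, where 30.4% of all genes rose and 28.1% fell, and the 2-fold rule called 0.845%. Within CC53 alone 17 members were past the threshold, of which 16 were also called in the same direction over the whole set. Over the whole set all 45 members were within 1.2-fold. The clearest was Psme4, an activator that binds the ends of the core particle. Its CPM was 431.3 at the lowest, 456.3 at the median and 492.3 at the highest of 12 controls, and 349.6, 386.6 and 406.4 after IAA, so the groups did not overlap. The change was -0.24 (SE 0.022, adjusted p = 6.12e-14).

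Psme4 was also the 1 member of 44 past the threshold in the initial set, where 5.24% of genes fell, 3.41% rose and 0.461% passed the 2-fold rule. There it had 693.8 and 738.7 CPM in controls and 611.8 and 549.7 after IAA, a change of -0.30 (SE 0.081, adjusted p = 0.00442). That call was lost without either treated library. The other members that fell in the additional set were the core genes Psma4, Psma6 and Psmb3, the base ATPase Psmc6, the lid gene Psmd14 and the inhibitor Psmf1. Psmb3 had 107.4, 114.3 and 121 CPM at the lowest, median and highest control and 99.49, 102.7 and 108.4 after IAA, a change of -0.14 (SE 0.02, adjusted p = 8.85e-09). The members that rose were Psma7, Psma8, Psmb4, Psmb6, Psmc1, Psmd1, Psmd11, Psmd5, Psmg2 and Psmg3. Psmb6 had 40.64, 44.09 and 45.95 CPM in controls and 42.11, 48.75 and 52.81 after IAA, a change of 0.16 (SE 0.031, adjusted p = 6.83e-05). Core and regulatory genes were found in both directions. Psmd1 and Psmg2, which were lower in YF-AA cells without CTCF, rose here, Psmd1 by 0.10 (SE 0.017, adjusted p = 3.82e-05) and Psmg2 by 0.16 (SE 0.035, adjusted p = 0.000351).

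In NPCs most proteasome genes past the threshold after RAD21 depletion were higher, with small sizes. At 1 h, 3 of 45 members were higher and 1 lower, where 8.61% of genes were higher and 7.41% lower and 0.593% passed the 2-fold rule. These were Psma2 at 0.17 (adjusted p = 0.0143), Psmd2 at 0.15 (adjusted p = 0.0189), Psmd4 at 0.13 (adjusted p = 0.036) and, lower, Psmd14 at -0.17 (adjusted p = 0.0151). DESeq2 called none of them, and without control 2 no member was called. At 2 h only Psmd2, a scaffold of the base like Psmd1, was past the threshold, at 0.23 (SE 0.066, adjusted p = 0.0167), where 5.35% of genes were higher and 9.21% lower and 0.331% rose and 1.17% fell by the 2-fold rule. Depending on the library left out, from 0 to 12 members were higher at 2 h: none without either control, 12 without treated library 1 and 6 without treated library 2.

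At 4 h, 13 of 45 were higher and none lower, where 18.4% of genes were higher and 21.1% lower and 3.57% passed the 2-fold rule. The 13 were Psma2, Psma7 and Psmb4 of the core, Psmc1, Psmc3, Psmd2 and Psmd4 of the base, Psmd8 and Psmd13 of the lid, the chaperones Psmd5 and Psmd10, and the activators Psme1 and Psme4. The median change was 0.06 for the tested members and -0.02 for all genes. When the p was taken against the median change of expressed genes, 11 members were higher and 3 lower, where 15.4% and 24.5% of all genes were. The 3 were Psmb7 at -0.11, Psmd14 at -0.12 and the chaperone Psmg1 at -0.22. DESeq2 called 7 members higher.

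The largest of the 4 h changes was that of Psme1, a subunit of the interferon-induced activator of the core. Psme1 had 4.938 and 4.707 CPM in NPC controls, 6.479 and 6.737 at 2 h, and 7.753 and 7.375 at 4 h, and its change at 4 h was 0.61 (SE 0.16, adjusted p = 0.00156). Psmd10 had 17.47 and 17.77 CPM in controls and 23.15 and 21.95 at 4 h, a change of 0.32. Psmd6 was not past the threshold in NPCs after RAD21 depletion, with 69.56 and 71.91 CPM in controls, 75.66 and 68.5 at 2 h and 74.21 and 72.19 at 4 h. Its changes were -0.03, -0.01 and 0.01 at 1 h, 2 h and 4 h (adjusted p of 0.988, 0.815 and 0.529). The 3 times and A-485 were compared with the same 2 control libraries.

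After inhibition of CBP and p300 by A-485 in NPCs, most proteasome genes had a higher share of nascent transcription than in controls. At 1 h, 35 of 45 members were higher and none lower, where 32.4% of all genes were higher and 35.3% lower. The 2-fold rule called 0.825% of genes higher and 20.2% lower, and no member in either direction. The median change was 0.20 for the tested members and -0.11 for all genes. The core alpha and constitutive beta genes had a median of 0.21, with 12 of 14 higher, and the base and lid genes a median of 0.20, with 16 of 17 higher. The median of expressed genes lay at 0.12 before centring. With the p taken against that median, 25 members were higher and 1 lower, where 21.5% of all genes were higher and 41.1% lower. Those were 8 of 14 core, 11 of 17 base and lid, 3 of 7 chaperone and 3 of 5 activator or inhibitor genes, and the lower one was Psme4 at -0.20 (adjusted p = 0.0235). These values are relative to the other genes of a library.

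**Figure D5:**
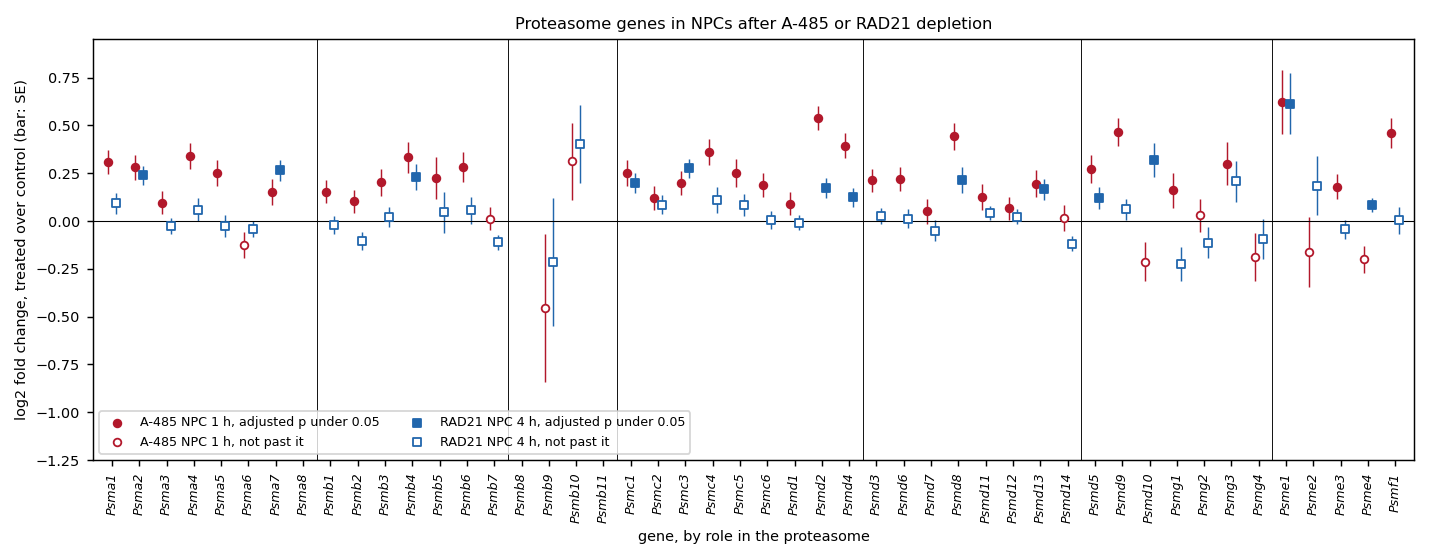
Log2 fold change with SE bars of each proteasome gene in NPCs after 1 h of A-485 and after 4 h of IAA in the RAD21-AID line, ordered by role; filled points are past an adjusted p of 0.05. The A-485 points lie mostly above 0 in every role with more than 2 tested genes.

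The 6 members at least 1.3-fold higher after A-485 came from several roles, and 11.4% of all genes were higher by that measure. Psme1 had 6.096 and 5.789 CPM over the first 90 kb in controls and 8.986 and 10.94 after A-485, a change of 0.62 (SE 0.168, adjusted p = 0.00104). Psmd2 had 75.49 and 74.6 in controls and 115.9 and 122.1 after A-485, a change of 0.54 (SE 0.064, adjusted p = 1.73e-07). Psmd9, a chaperone of base assembly, had 62.3 and 63.85, then 89.02 and 101.2, a change of 0.47 (SE 0.073, adjusted p = 3.14e-06). In all 3 the treated libraries lay above both controls. Psmf1, the inhibitor of the core, had 43.07 and 50.09, then 70.28 and 69.93, a change of 0.46 (SE 0.078, adjusted p = 7.31e-06). The lid gene Psmd8 had 40.59 and 41.64, then 60.59 and 61.41, a change of 0.44 (SE 0.071, adjusted p = 3.81e-06). Psmd4 had 85.68 and 84.88, then 117.6 and 126.9, a change of 0.39 (SE 0.065, adjusted p = 3.56e-06). These 3 did not overlap with their controls either. Psmd6 rose by 0.22 (SE 0.062, adjusted p = 0.000151), from 85.88 and 88.43 to 111.1 and 110.5 CPM.

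Among the 27 partner genes, which include shuttle factors and regulators of proteasome genes, A-485 was followed by 9 higher and 7 lower, with a median change of 0.00, where 32.4% of all genes were higher and 35.3% lower. The lower ones were led by Nfe2l2, the stress factor that binds antioxidant response elements, at -1.87 (adjusted p = 7.51e-13), and included Zfand5 at -0.63, Akirin2, which brings proteasomes into the nucleus, at -0.57, and Ecpas at -0.44. After RAD21 depletion in the additional mESC set 11 partners were lower, where 28.1% of all genes were. In the CTCF experiments 2 partners fell in each of the CTCF-AID, AGB1 and combined comparisons, where 2.01%, 1.49% and 4.55% of all genes fell. The 2 that fell were Uchl5, a deubiquitinase bound to the regulatory particle, and the shuttle factor Ubqln4. Uchl5 was at -0.49 (adjusted p = 0.0154) in CTCF-AID cells, -0.57 and -0.46 at 2 h and 4 h in YF-AA cells, -0.28 after AGB1 and -0.25 after both drugs. Ubqln4 was at -0.64 (adjusted p = 0.00115), -0.48, -0.43, -0.31 and -0.44 in the same order. In YF-AA cells 4 partners fell at each time, where 2.70% and 3.40% of all genes did. Adrm1, a ubiquitin receptor of the base, fell with them, at -0.55 at 2 h and -0.65 at 4 h, and so did Vcp, at -0.27 and -0.20. No partner was called after dTAG-13 in the ΔN and ΔC line.

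The remaining comparisons are between control libraries. The YF-AA line against unstranded CTCF-AID controls had 15 of 45 members higher and none lower, where 24.5% of all genes were higher, 23.2% lower and 15.6% past the 2-fold rule. With the p taken against the median change, 11 were higher and 1 lower, where 21.6% and 26.0% of genes were. Psma7 was 0.91 higher, with 46.51 and 47.56 CPM in CTCF-AID and 86.77 and 86.86 in YF-AA cells, and Psmg1 was 0.71 higher, with 46.28 and 45.53 against 76.27 and 72.55. Psmd6 was at -0.23 (adjusted p = 0.134). Line, batch and growth rate cannot be told apart here, and against all 4 CTCF-AID controls 2 members were higher.

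NPC controls had a lower share of transcription from most proteasome genes than the additional RAD21-AID mESC controls, and the count depended on the mESC set. Of 46 members, 37 were lower and 5 higher, where 44.4% of all genes were lower and 45.4% higher. The median difference was -0.24 for the members and 0.11 for all genes. With the p taken against the median of expressed genes, which lay at -0.10, 31 were lower and 7 higher, where 41.2% and 48.6% of genes were. Against the 2 initial mESC controls 21 were lower and 12 higher, with a median of -0.05, and 26 of the 42 calls were shared in the same direction. The 2-fold rule called 2 members and 45.5% of genes. Psma8, which had 15.52 TPM in mESCs, had counts of 1 and 5 in the NPC controls. Pooled over libraries it was 339-fold higher in mESCs (95% exact interval 156 to 925, counting error only). The fitted difference was -8.24, and ran from -9.77 to -7.43 when either NPC control was left out.

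Psmb9 went the other way and was 4.81-fold higher in NPCs (95% exact interval 3.28 to 7.08), from 58 counts in 2 NPC libraries and 56 in 12 mESC libraries. The others that were higher in NPCs were Psmd10 at 0.81, Psme2 at 0.75, Psmd9 at 0.60 and Psma6 at 0.20. Psmd10 had 10.96 CPM in the median mESC control and 17.47 and 17.77 in NPCs, above the highest mESC control at 12.17. Psmd6 was at 0.13 (adjusted p = 0.511), with an adjusted p of 0.0144 against the median of expressed genes, and at 0.40 (adjusted p = 3.18e-06) against the initial mESC controls. It ranked eighth among members in NPCs, at 142 TPM, and was 132.4 TPM in mESCs. Cell type and batch cannot be told apart. Summed markers of endoderm were 1.995 to 3.261 TPM in mESC and 19.55 to 23.7 in NPC controls. Those of mesoderm were 21.41 to 30.83 and 9.027 to 12.24, and those of astrocytes and neurons 61 to 74.57 and 48.54 to 49.77. The genes of a list did not all move alike. From mESC to NPC controls Foxa2 rose from 0.3908 to 19.41 TPM and Gata6 from 1.337 to 2.209, while Sox17 went from 0.8698 to 0. Tubb3 fell from 67.85 to 39.59, while Gfap rose from 1.378 to 2.514 and Dcx from 0.00365 to 7.048. The part of these markers in the differences was not tested.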

How the data were processed

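EU-seq reads were processed by the authors: adapters were trimmed with cutadapt, reads aligned to mm10 with BWA, low mapping quality removed with SAMtools 1.4, rRNA and tRNA removed with bedtools, and reads counted with HTSeq over the gene body of 1 transcript per gene. The deposited values are raw counts per transcript, not pooled over replicates. NPC counts for 1 h were limited by the authors to the first 90 kb of each gene. Whether the counting used strand is not given in the sources used here, and filtering on mapping quality can remove reads of subunits with near-identical pseudogene copies. The dTAG-13 doses are those of the labels. Every library total and its precision is covered by the range in the report.

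Symbols came from matching transcript identifiers to GENCODE, for 27455 of 27665 transcripts. Genes whose mean count passed 20 in any group were tested with edgeR 4.0.16 in R 4.3.3 (TMM, quasi-likelihood F test, two-sided, Benjamini-Hochberg adjustment over all genes tested), and the median log2 fold change of genes above 15 TPM was subtracted. A call needs an adjusted p under 0.05, with or without a 2-fold change as stated. CPM values are divided by TMM-scaled library sizes, and TPM values by gene body length. The self-test used simulated counts. Named genes were Psmd6, Psmd4, members past the threshold with at least 1.3-fold, the highest and lowest members, catalytic pairs and members below the filter. Role, partner, marker and motif lists and the members themselves were chosen with earlier results of these data known. Same-numbered CTCF-AID libraries deviated together (r from 0.61 to 0.83 over 4 pairs, library type as a term), so a fit with their numbers as pairs was also run. The main CTCF-AID fit and the joint fit with RAD21-AID had no pair term. Genes overlapping another gene are uncertain: Psma2, Psmb7, Psmb9, Psmc3, Psmd1, Psmd13 and Psmg3. Alternatives were DESeq2 1.42.0, RLE size factors, no filter, no centring, a replicate block, leaving out libraries and, added after seeing the data, a crossed block and a p against the median change. The values of some partner genes are not reported here.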

Additional observations from a re-analysis of the deposited data

Results flagged for a closer look

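Each result here was singled out because the CTCF-AID effect at 6 h and the additional RAD21-AID effect at 4 h of the same drug in mESCs differed at an adjusted p under 0.05 in a joint edgeR fit. That fit had no term for the replicate pairs of the CTCF-AID libraries. Psmd6 differed by -0.62 (adjusted p = 3.33e-08), with -0.62 in CTCF-AID and -0.01 in RAD21-AID cells. Psmd1 differed by -0.21 (adjusted p = 0.000112), from -0.11 and 0.10. Psmg2 differed by -0.27 (adjusted p = 0.0239), from -0.10 and 0.16. Psma5 differed by -0.15 (adjusted p = 0.023), from -0.12 and 0.03. Psma6 differed by 0.15 (adjusted p = 0.0293), from 0.08 and -0.07. Only Psmd6 differed by at least 1.3-fold. Time and line differ between the experiments and batch may differ too, and their part in these differences was not tested.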

How the results depend on the processing

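The 260 headline values were refitted counts of members called with a 2-fold change and, where it was past the threshold, the change of Psmd6. Of these, 249 were kept: a count stayed at 0 or near its main value, or Psmd6 kept its direction and side of the threshold. In 8 a count moved and in 3 Psmd6 became weaker. Among the other values 655 were kept, 48 counts moved, 18 changes reversed sign, 11 became weaker and 5 stronger. The cause was not tested. Psmd6 in CTCF-AID cells became weaker without unstranded control 2 (adjusted p = 0.0516), without the library type term (-0.62, adjusted p = 0.0608) and in stranded libraries alone (-0.61, adjusted p = 1), with -0.67 to -0.57 when each library was left out. The count of members called with a 2-fold change was 0 and became 1 after A-485 with no filter (Psmb11 at 1.53) and without A-485 library 2 (Psmb9 at -1.12), 1 in CTCF-AID cells with the replicate block (Psmb9 at 1.16), and 0 to 1 when libraries were left out for YF-AA 4 h (Psmb10 at -2.32 without control 2, Psmd6 at -1.07 without treated library 2) and for the YF-AA line against the CTCF-AID line (Psmb10 at 1.06 without YF-AA control 2). For NPC against mESC it was 2 and became 4 with no filter or with the initial mESC controls. Near-zero values of Psmd6 changed sign when libraries were left out: from -0.084 to 0.049 in initial RAD21-AID cells, -0.097 to 0.062 and -0.006 to 0.035 in NPCs at 2 h and 4 h, -0.029 to 0.024 after dTAG-13 and -0.288 to 0.067 between 4 h and 2 h in YF-AA cells. Psmd6 in NPCs at 2 h was 0.033 without centring. Psmd4 ran from -0.054 to 0.175 in CTCF-AID cells, from -0.065 to 0.091 at 2 h in YF-AA cells (-0.007 without centring, -0.002 with the replicate block) and from -0.042 to 0.031 between both drugs and AGB1 (0.00 without centring), and was 0.01 between NPC and the initial mESC controls. Members past the adjusted p alone numbered 7 rather than 13 with DESeq2 at 4 h in NPCs, 0 rather than 4 at 1 h, 0 rather than 1 at 2 h, 1 rather than 2 after AGB1, and 12 higher and 21 lower between NPC and the initial mESC controls. With no filter 4 members were higher at 2 h in NPCs. The replicate block gave -0.63 for Psmd6 in CTCF-AID cells, where the numbers pair the libraries. Elsewhere it changed no call of Psmd6, and gave 8 members at 2 h in NPCs rather than 1, 0 rather than 1 in the initial RAD21-AID set, 2 rather than 1 for AGB1 against dTAG-13 and 1 rather than 0 for both drugs against AGB1. In the additional set same-numbered libraries correlated at -0.05 to 0.26, and 2 of 12 treated libraries correlated best with their own number. With the numbers crossed, 1 member was higher in the initial RAD21-AID set and 5 in NPCs at 1 h. The SE of Psmd6 was 0.118 with 2 libraries a group at 2 h in YF-AA cells and 0.028 with 12 in the additional RAD21-AID set, which also differ in depth and line.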

Other observations

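Psmd4 passed the adjusted threshold in NPCs at 1 h and 4 h of RAD21 depletion, at 0.13 and 0.12, and the first call was lost when the p was taken against the median change (adjusted p = 0.0832). Psmb8 had 18 counts over 2 NPC libraries and 5 over 12 mESC libraries, which is 16.7-fold higher in NPCs (95% exact interval 5.99 to 57.7, counting error only). Psmb11 had 11 counts over the 2 NPC libraries and 12 over the 12 mESC libraries. That is 4.26-fold higher in NPCs (95% exact interval 1.7 to 10.5, counting error only).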
